A study of Mus musculus with 9 samples.

Results

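The cytosolic ribosome is built from ribosomal RNA and a fixed set of proteins, each named for the small subunit (Rps, with Rpsa) or the large subunit (Rpl, with the stalk proteins Rplp). The genes described here are the protein-coding entries of the expression table whose symbols follow that naming pattern, a rule that used no measured value. It found 76 of the 12842 genes, 31 of the small and 45 of the large subunit. Rpl41 was not analysed here. Nearly every protein is present in a single copy per ribosome, and the mRNAs share a tract of pyrimidines at the start of the transcript, the terminal oligopyrimidine (TOP) motif, through which the growth-regulating kinase complex mTORC1 sets their translation. Unassembled ribosomal proteins are degraded, except that some bind the ubiquitin ligase Mdm2 and stabilise p53.

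The libraries were RNA-seq profiles of NPK cells, a mouse prostate cancer line isolated from lung metastases of engineered mice that carry a tamoxifen-inducible Cre and a YFP reporter. Cells grew in medium with serum. The question addressed was how silencing Nsd2, a histone methyltransferase of H3K36, and treatment with MCTP change expression. The paper describes MCTP-39 as a putative inhibitor of Nsd2. There were 3 groups of 3 libraries: control cells, cells treated with MCTP and cells with an shRNA against Nsd2 (shNsd2). The labels name the compound MCTP39, MCTP40 and MCTP41 in MCTP replicates 1, 2 and 3, so that whether these were 3 compounds or 1 was not known. In the shNsd2 group the titles name Nsd2 throughout, while a second label names Nsd2, Nsd3 and Nsd4 in replicates 1, 2 and 3. The paper's methods describe a luciferase hairpin as the control for silencing and, for MCTP-39 in another cell line, DMSO as vehicle. For these libraries, the labels give neither dose nor duration of MCTP, nor the hairpin used, nor whether control cells carried a control hairpin or vehicle. The values were read as log2, with libraries already scaled to each other, which was inferred from the values themselves, because neither scale nor transform is stated for this table. For its tumour profiles the paper states a variance-stabilizing transform. Shares and sums on the linear scale rest on the log2 reading. Read depth is unknown. Nothing says that the replicates are separate cultures, so p-values measure only the spread between these libraries.

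Nsd2, listed as Whsc1, served as the check of the labels. It read 12.48, 12.43 and 12.42 in the control libraries, 12.15, 12.21 and 12.07 in the MCTP libraries and 11.56, 11.61 and 11.68 in the shNsd2 libraries. The groups did not overlap, and shNsd2 was lowest. Nsd2 mRNA was lower with shNsd2 by a log2 fold change of -0.83 ± 0.04 (SE, 3 libraries a group; limma, adjusted p = 2.26e-06) and with MCTP by one of -0.30 ± 0.05 (limma, adjusted p = 0.00562). An exact two-sided permutation test gave p = 0.1 for each, the smallest that 3 against 3 allows. All 3 shNsd2 libraries, including those whose second label names another gene, lay below every control library.

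Epithelial markers fitted the label of prostate cancer cells in part. In the control libraries the luminal keratin Krt8 stood at 16.21, 16.35 and 16.28, Krt18 at 15.25, 15.47 and 15.44 and the prostate homeobox factor Hoxb13 at 10.25, 10.32 and 10.28. Epcam, at 3.55, 3.54 and 3.55, and the basal factor Trp63, at 4.94, 4.81 and 4.85, lay near the bottom of the table, whose lowest value was 1.63. The basal keratin Krt14 did not, at 8.78, 8.98 and 8.95 in control, 10.06, 9.91 and 10.30 in MCTP and 9.76, 9.68 and 9.63 in shNsd2. It rose by 0.78 ± 0.06 with shNsd2 (limma, adjusted p = 2.22e-05) and by 1.19 ± 0.10 with MCTP (limma, adjusted p = 0.000274), the largest changes in the epithelial list. The mesenchymal filament gene Vim was high, at 17.16, 17.26 and 17.23, and the collagen genes Col3a1, at 10.90, 10.67 and 10.83, and Col1a1, at 8.25, 8.12 and 8.23, were well above the bottom. Pdgfra (3.97, 4.01 and 3.99) and Dcn (2.31, 2.32 and 2.34), the endothelial gene Cdh5 (3.49, 3.48 and 3.52) and the lung airway gene Foxj1 (2.66, 2.67 and 2.66) were near the bottom and the macrophage gene Cd68 was low (6.50, 6.51 and 6.60 in control, 7.20, 7.15 and 7.44 in MCTP and 6.78, 6.78 and 6.72 in shNsd2). Of 8 tested genes of the epithelial list, 1 was called higher and 5 lower with shNsd2, and 2 higher and 1 lower with MCTP. Of 4 tested mesenchymal genes, 1 was called higher and 3 lower with shNsd2 and 1 each way with MCTP, and Cd68 was called higher in both. Over all genes, 23.1% were called higher and 24.8% lower with shNsd2, and 18% and 17.2% with MCTP. The 9 epithelial genes in the table, led by Krt8 or Krt19, summed on the linear scale to log2 values of 17.54, 17.72 and 17.67 in control, 17.91, 17.69 and 18.05 in MCTP and 17.51, 17.45 and 17.35 in shNsd2. The 5 mesenchymal genes, led by Vim, summed to 17.18, 17.28 and 17.25 in control, 17.57, 17.41 and 17.66 in MCTP and 17.10, 17.12 and 17.01 in shNsd2. Both sums were lowest in shNsd2, and their part in the ribosomal protein values was not tested. In bulk RNA, fewer cells of a type and less RNA per cell cannot be told apart.

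Across the 76 genes, the groups overlapped in their mean. The mean log2 value of the members was 14.24, 14.32 and 14.29 in the control libraries, 14.37, 14.23 and 14.47 in the MCTP libraries and 14.40, 14.36 and 14.30 in the shNsd2 libraries. MCTP replicate 2 lay below every control library and MCTP replicate 3 above every other library, and shNsd2 replicate 3 lay within the control range, so the groups overlapped. As a share of the summed values on the linear scale, the members took 5.66%, 5.92% and 5.83% in control, 6.11%, 5.72% and 6.50% in MCTP and 6.33%, 6.21% and 5.97% in shNsd2. Every shNsd2 library exceeded the control libraries by this measure, while MCTP replicate 2 did not.

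All 76 members passed the filter on low values in each comparison. With shNsd2, 19 of 76 members (25.0%) rose and 0 fell (limma, Benjamini-Hochberg adjusted p under the threshold of 0.05), against 23.1% of all 12205 genes tested called higher, 24.8% called lower and 47.8% called in either direction. The share that rose was thus near that of all genes in this fit. By unadjusted p under 0.05, 24 members differed. The median log2 fold change of the members was 0.06, against 0.00 over all genes, with 60 of 76 above 0 and a range from -0.09 to 0.34. Without shNsd2 replicate 1 the median was 0.04, with 54 of 76 above 0. The log2 fold change was beyond 0.25 in either direction for 2 members (2.63%), against 18.4% of all genes. The shNsd2 and control values did not overlap for 24 members on the higher side and 5 on the lower side, where the background was 28.1% and 29.1%. The count of 19 fell to 6 without shNsd2 replicate 1, to 8 without shNsd2 replicate 2, to 9 with a replicate block and to 3 when all 9 libraries entered 1 fit, where 36.6%, 35.6%, 37.0% and 35.4% of all genes were called in either direction.

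With MCTP, 3 members (Rplp1, Rps12 and Rps21) rose and 1 (Rpl5) fell, 5.26% of the 76 against 35.2% of all 12216 genes tested, of which 18% were called higher and 17.2% lower. At an unadjusted p under 0.05 the count was 8. The median log2 fold change was 0.07, against -0.01 over all genes, with 64 of 76 members above 0 and a range from -0.21 to 0.43. Groups did not overlap for 8 members on the higher and 4 on the lower side, against a background of 25.8% and 24.8%. Without MCTP replicate 2, labelled MCTP40, 35 members were called higher and 3 lower, with a median of 0.14, while 60.4% of all genes were called. Without MCTP replicate 3 the median was 0.02 with 45 of 76 members above 0, and with length correction 0.02 with 42 of 76. Leaving out MCTP replicate 1 or any 1 control library gave 0 and 0, where 16.7% to 20.1% of all genes were called, and leaving out MCTP replicate 3 gave 1 and 1, where 23.3% were. The shNsd2 and MCTP comparisons share their control libraries.

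**Figure D1:**
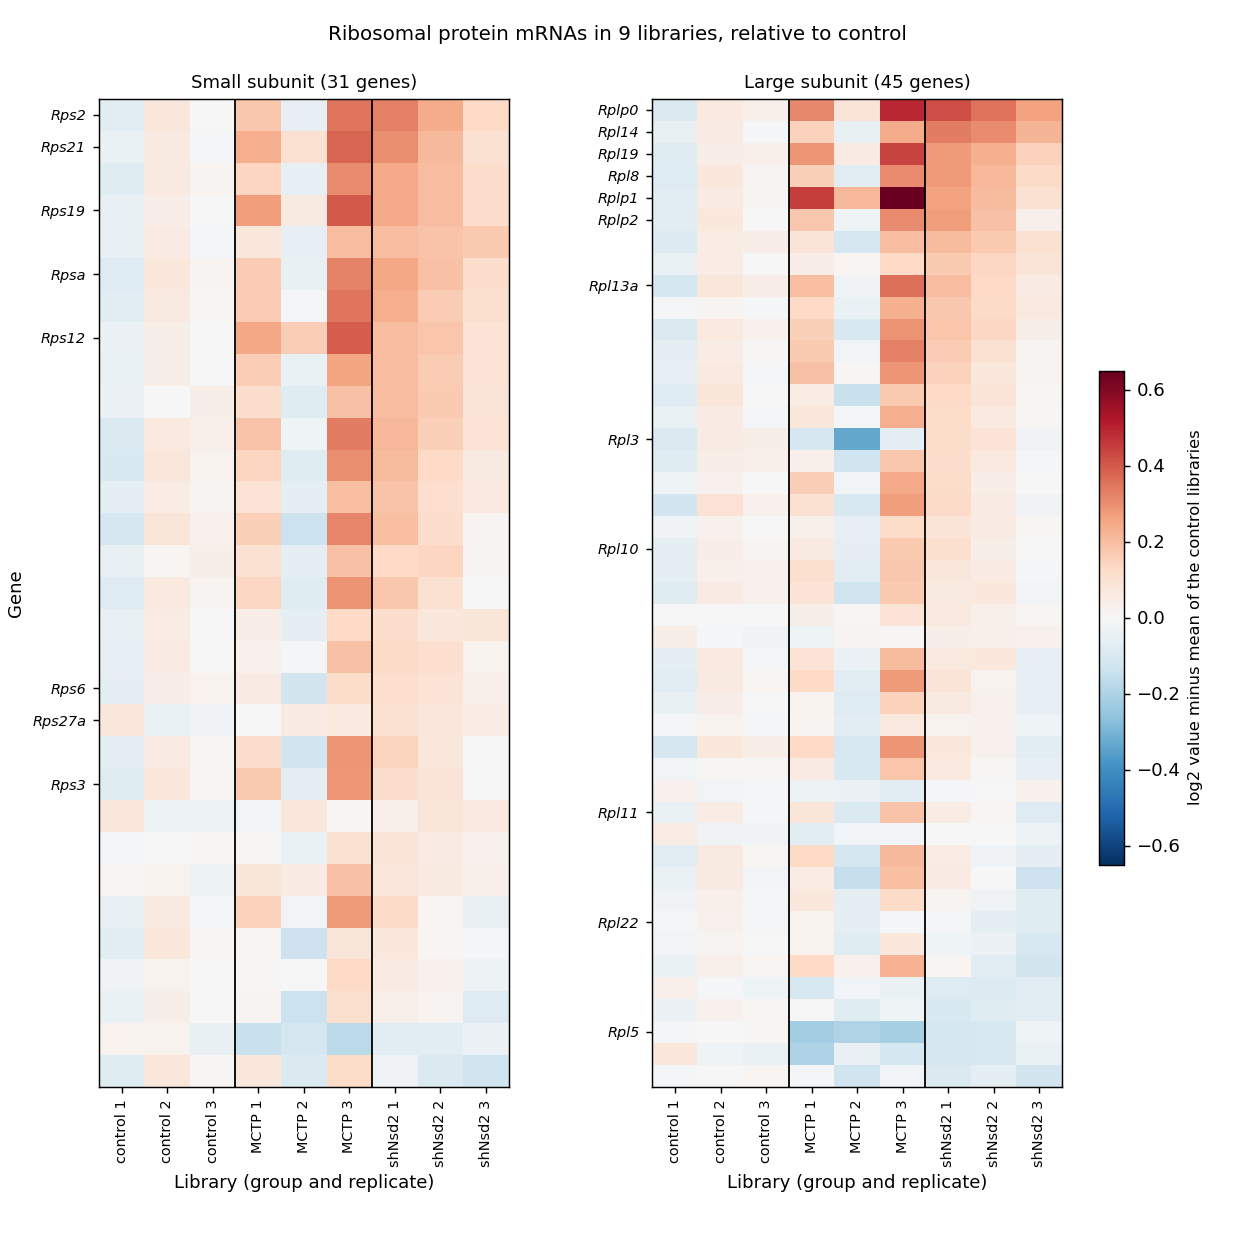
Log2 value of each of the 76 ribosomal protein mRNAs (lines, sorted within each subunit by the shNsd2 difference, with names for the genes described in the text) in each of the 9 libraries (columns), minus the mean of the 3 control libraries for that gene. Most genes are above the control mean in MCTP replicate 3 and shNsd2 replicate 1 and below it in MCTP replicate 2, and Rpl5 is blue in all 3 MCTP libraries.

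The stalk of the large subunit, formed by Rplp0 with pairs of Rplp1 and Rplp2, recruits the elongation factors, and the largest rise of each comparison with control was in a stalk gene. Rplp0, the base of the stalk (GENCODE M21, GRCm38, chr5:115559467-115563727 (+)), read 15.41, 15.57 and 15.54 in control, 15.82, 15.59 and 16.00 in MCTP and 15.93, 15.86 and 15.77 in shNsd2. Every MCTP and shNsd2 library lay above every control library. The log2 fold change with shNsd2 was 0.34 ± 0.06 (SE; limma, adjusted p = 0.00139), and this call was kept without any 1 library. With MCTP it was 0.29 ± 0.11 (limma, adjusted p = 0.0636), short of the threshold, and 0.40 without MCTP replicate 2, when it passed, as it did with cyclic loess (0.23), GC correction (0.24) or all 9 libraries in 1 fit. Without MCTP replicate 3 it was 0.20. Rplp1, which tips the stalk (chr9:61913284-61914542 (-)), stood at 14.90, 15.03 and 14.99 in control, 15.42, 15.19 and 15.62 in MCTP and 15.24, 15.18 and 15.08 in shNsd2. It was again higher in all 6 libraries than in control, and most so in MCTP replicates 1 and 3. Rplp1 rose by 0.43 ± 0.11 with MCTP (limma, adjusted p = 0.0177) and by 0.19 ± 0.05 with shNsd2 (limma, adjusted p = 0.0166). The MCTP call was lost without MCTP replicate 1 (0.43) or without control replicate 1 (0.40), 2 (0.46) or 3 (0.44), and the shNsd2 call without shNsd2 replicate 1 (0.15) or 2 (0.18), with a replicate block and with all 9 libraries in 1 fit. Rplp2, its partner, gave 14.09, 14.23 and 14.16 in control, 14.33, 14.13 and 14.46 in MCTP and 14.43, 14.35 and 14.19 in shNsd2. Here both groups overlapped the controls, since MCTP replicate 2 and shNsd2 replicate 3 were within the control range. Its log2 fold change of 0.17 ± 0.06 with shNsd2 did not pass (limma, adjusted p = 0.055) and was 0.11 without shNsd2 replicate 1. It passed without shNsd2 replicate 3 (0.23) and with quantile, median, loess or GC adjustment of the libraries. With MCTP it was 0.15 ± 0.09 (limma, adjusted p = 0.205), and it passed at 0.24 without MCTP replicate 2 and was 0.08 without MCTP replicate 3.

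Of the 31 small subunit members, 11 rose with shNsd2, against 23.1% of all genes, and 2 with MCTP, against 18% (limma). Their median log2 fold change was 0.09 in each comparison, with 28 of 31 above 0. Rps2, which lines the mRNA entry site, read 16.09, 16.23 and 16.16 in control, 16.34, 16.11 and 16.51 in MCTP and 16.49, 16.40 and 16.29 in shNsd2. The shNsd2 libraries lay above the controls, and MCTP replicate 2 among them. Its log2 fold change was 0.23 ± 0.06 with shNsd2 (limma, adjusted p = 0.0131; 0.18 and not called without shNsd2 replicate 1, nor called with all 9 libraries in 1 fit) and 0.16 ± 0.10 with MCTP (limma, adjusted p = 0.264; 0.26 and called without MCTP replicate 2, 0.06 without MCTP replicate 3). Rpsa, also known as the laminin receptor, gave 16.13, 16.28 and 16.23 in control, 16.38, 16.17 and 16.54 in MCTP and 16.47, 16.40 and 16.33 in shNsd2, with the same order of libraries. It rose by 0.18 ± 0.06 with shNsd2 (limma, adjusted p = 0.0232), a call lost without control replicate 3 (0.19), without shNsd2 replicate 1 (0.15) or 2 (0.18), with a replicate block and with all 9 libraries in 1 fit. Its MCTP value was 0.15 ± 0.10 (limma, adjusted p = 0.277), passing at 0.24 without MCTP replicate 2 and standing at 0.06 without MCTP replicate 3.

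Rps19, which matures the small subunit and is mutated in Diamond-Blackfan anaemia, was at 14.26, 14.35 and 14.31 in control, 14.58, 14.36 and 14.71 in MCTP and 14.55, 14.51 and 14.42 in shNsd2. No library of the treated groups reached down to the controls. With shNsd2 it rose by 0.19 ± 0.05 (limma, adjusted p = 0.00863), kept without any 1 library but not with all 9 in 1 fit. The MCTP value of 0.24 ± 0.09 did not pass (limma, adjusted p = 0.064) and was 0.34, past the threshold, without MCTP replicate 2. It also passed with quantile normalization (0.22), cyclic loess (0.21), GC correction (0.14) and all 9 libraries in 1 fit, and was 0.17 without MCTP replicate 3. Rps12, of the head of the subunit, read 14.48, 14.55 and 14.51 in control, 14.77, 14.67 and 14.91 in MCTP and 14.72, 14.70 and 14.61 in shNsd2. Both groups were above the controls, and MCTP had the highest library. It rose by 0.27 ± 0.07 with MCTP (limma, adjusted p = 0.0239) and by 0.16 ± 0.04 with shNsd2 (limma, adjusted p = 0.014). Rps21 gave 12.64, 12.74 and 12.67 in control, 12.92, 12.78 and 13.07 in MCTP and 12.99, 12.90 and 12.79 in shNsd2. Again neither group overlapped the controls, and MCTP replicate 2 was the nearest to them. The rise was 0.24 ± 0.08 with MCTP (limma, adjusted p = 0.0444) and 0.20 ± 0.05 with shNsd2 (limma, adjusted p = 0.0126). The MCTP call of Rps12 was lost without control replicate 1 (0.25), 2 (0.29) or 3 (0.27), without MCTP replicate 1 (0.28) or 3 (0.21), and with a replicate block. The shNsd2 call of Rps12 was lost without shNsd2 replicate 1 (0.14) or 2 (0.15), with a replicate block and with all 9 libraries in 1 fit. The MCTP call of Rps21 was lost without control replicate 1 (0.22), 2 (0.27) or 3 (0.23), without MCTP replicate 1 (0.24) or 3 (0.17), and with a replicate block, and its shNsd2 call with all 9 libraries in 1 fit.

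Rps3, Rps6 and Rps27a were followed whatever their values and passed in neither comparison. Rps3, at the mRNA entry channel, read 14.85, 15.00 and 14.94 in control, 15.10, 14.87 and 15.21 in MCTP and 15.05, 15.02 and 14.93 in shNsd2, with overlap of all groups and log2 differences of 0.07 with shNsd2 and 0.13 with MCTP (0.22 and called without MCTP replicate 2, 0.05 without MCTP replicate 3). Rps6, the substrate of S6 kinase, read 14.95, 15.06 and 15.04 in control, 15.07, 14.90 and 15.14 in MCTP and 15.13, 15.11 and 15.05 in shNsd2, again with overlap of all groups and with differences of 0.07 for shNsd2 and 0.02 for MCTP. Without 1 library, Rps6 ran from 0.04 to 0.10 with shNsd2 and from -0.03 to 0.09 with MCTP. Rps3 ran from 0.03 to 0.10 with shNsd2. Rps27a, which is made as a fusion to ubiquitin, read 14.26, 14.15 and 14.18 in control, 14.20, 14.25 and 14.26 in MCTP and 14.30, 14.27 and 14.24 in shNsd2. It differed from most members in that control replicate 1 was its highest control library, and its shNsd2 value of 0.07 passed at 0.11 without that library and at 0.10 with GC correction.

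Of the 45 large subunit members, 8 rose with shNsd2, against 23.1% of all genes, and with MCTP 1 rose and 1 fell, against 18% and 17.2% (limma). Their median log2 fold changes were 0.04 and 0.06. After Rplp0, Rpl14 held the second largest rise with shNsd2. Rpl14 (chr9:120571444-120574654 (+)) stood at 14.47, 14.57 and 14.52 in control, 14.67, 14.47 and 14.76 in MCTP and 14.85, 14.83 and 14.74 in shNsd2. The shNsd2 libraries lay above the controls and the MCTP libraries reached from control to shNsd2 values. Its rise with shNsd2 was 0.29 ± 0.04 (limma, adjusted p = 0.000862), a call kept without any 1 library and with all 9 in 1 fit, and its MCTP value was 0.11 ± 0.08 (limma, adjusted p = 0.291), passing at 0.20 without MCTP replicate 2 and standing at 0.05 without MCTP replicate 3. Rpl19, which contacts the small subunit, gave 14.93, 15.05 and 15.04 in control, 15.29, 15.06 and 15.45 in MCTP and 15.28, 15.24 and 15.16 in shNsd2. Every treated library was above the controls, MCTP replicate 2 by the least. With shNsd2 Rpl19 rose by 0.22 ± 0.05 (limma, adjusted p = 0.00673; not called with all 9 libraries in 1 fit), and with MCTP it gave 0.26 ± 0.10 (limma, adjusted p = 0.0766), passing at 0.36 without MCTP replicate 2 and also with quantile normalization (0.19), cyclic loess (0.21) or all 9 libraries in 1 fit. Without MCTP replicate 3 it was 0.17. Rpl8, near the catalytic centre, read 14.76, 14.91 and 14.86 in control, 15.00, 14.77 and 15.15 in MCTP and 15.12, 15.06 and 14.97 in shNsd2 and rose by 0.21 ± 0.05 with shNsd2 (limma, adjusted p = 0.0128). The shNsd2 libraries lay above the controls, which the MCTP libraries overlapped. The call was lost without shNsd2 replicate 1 (0.17) and with all 9 libraries in 1 fit, and the MCTP value of 0.13 passed at 0.23 without MCTP replicate 2 and was 0.04 without MCTP replicate 3.

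Rpl5 was the only member called lower in either comparison with control. Together with Rpl11 it binds the smallest rRNA of the large subunit and, outside the ribosome, Mdm2. Rpl5 (chr5:107900502-107909005 (+)) read 14.81, 14.82 and 14.83 in control, 14.60, 14.63 and 14.60 in MCTP and 14.70, 14.72 and 14.79 in shNsd2. The control libraries were nearly identical, the MCTP libraries lowest, and shNsd2 in between with no overlap of any groups. It fell by 0.21 ± 0.05 on the log2 scale with MCTP (limma, adjusted p = 0.0159), and its shNsd2 value was -0.08 ± 0.04 (limma, adjusted p = 0.108), passing at -0.11 without shNsd2 replicate 3. The MCTP call was lost without MCTP replicate 1 (-0.21), without control replicate 1 (-0.21), 2 (-0.21) or 3 (-0.21), with a replicate block, and with correction for transcript GC content, where the value was -0.03. Rpl11 was at 14.11, 14.20 and 14.15 in control, 14.23, 14.06 and 14.34 in MCTP and 14.20, 14.16 and 14.07 in shNsd2, with differences of -0.01 for shNsd2 and 0.06 for MCTP and overlapping groups. Without 1 library these ran from -0.035 to 0.031 and from -0.009 to 0.131. Rpl3, beside the peptidyl transferase centre, was at 15.43, 15.58 and 15.56 in control, 15.41, 15.19 and 15.47 in MCTP and 15.64, 15.61 and 15.50 in shNsd2. MCTP replicate 2 was its lowest library, and the MCTP and shNsd2 libraries did not overlap. Its MCTP value of -0.17 ± 0.09 did not pass (limma, adjusted p = 0.165) but did after quantile normalization (-0.25), cyclic loess (-0.22) or GC correction (-0.21). Without MCTP replicate 2 it was -0.08. With shNsd2 it was 0.06 ± 0.06 (limma, adjusted p = 0.394), and 0.01 to 0.10 without 1 library.

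Other large subunit genes followed for every comparison gave no call. Rpl10, which joins the subunit last, read 15.36, 15.47 and 15.44 in control, 15.48, 15.36 and 15.60 in MCTP and 15.53, 15.46 and 15.43 in shNsd2. Rpl13a, which is released from the ribosome in the interferon response, gave 14.90, 15.10 and 15.06 in control, 15.22, 15.00 and 15.38 in MCTP and 15.22, 15.15 and 15.07 in shNsd2. Rpl22, which cells can replace by its paralog Rpl22l1, was at 12.98, 13.02 and 12.98 in control, 13.02, 12.94 and 12.99 in MCTP and 12.99, 12.94 and 12.92 in shNsd2. For these 3 genes the groups overlapped. Rpl10 differed by 0.05 with shNsd2 and 0.05 with MCTP, and Rpl22 by -0.05 and -0.02. Without 1 library, Rpl10 ran from 0.017 to 0.072 with shNsd2 and from -0.004 to 0.115 with MCTP. Rpl22 ran from -0.070 to -0.034 and from -0.035 to 0.007. Rpl13a differed by 0.13 with shNsd2, which was 0.07 without control replicate 1 and passed after cyclic loess normalization (0.11). Its MCTP difference of 0.18 passed at 0.28 without MCTP replicate 2 and was 0.09 without MCTP replicate 3.

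**Figure D2:**
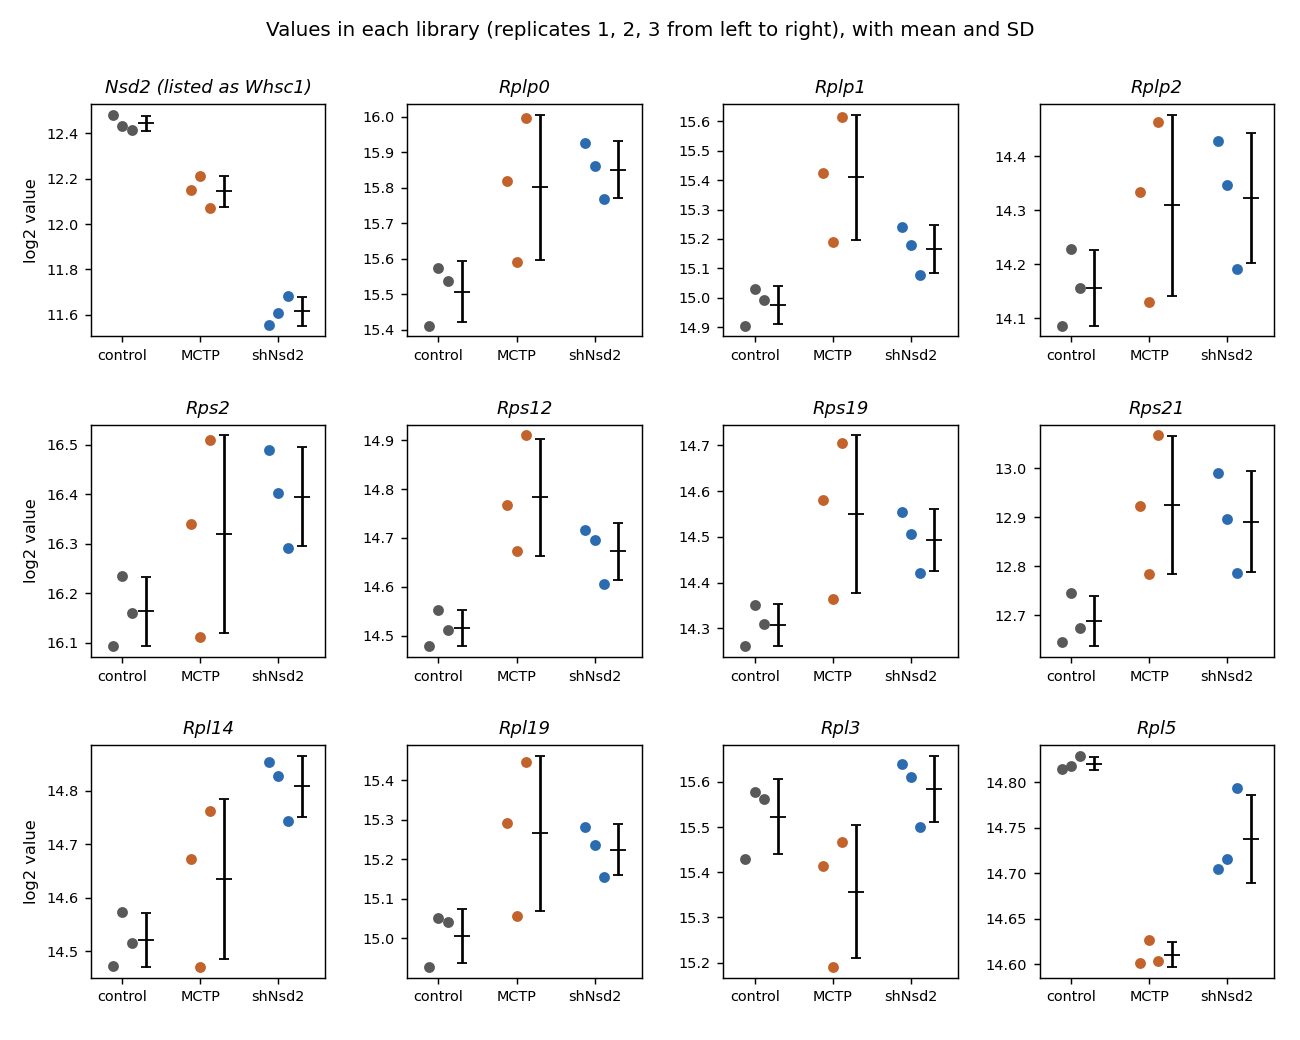
Log2 value in each library (points, replicates 1 to 3 from left to right) with the mean and SD of 3 libraries for Nsd2, listed as Whsc1, and 11 ribosomal protein genes. Axes differ in range. Rplp0, Rplp1, Rps12, Rps19, Rps21 and Rpl19 lie above the controls in all MCTP and shNsd2 libraries, and Rpl5 lies below them.

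Relative to the large subunit genes, the small subunit genes stood slightly higher in both treated groups than in control. The mean log2 value of the small subunit members minus that of the large subunit members was 0.17, 0.18 and 0.17 in the control libraries, 0.20, 0.19 and 0.22 in the MCTP libraries and 0.23, 0.22 and 0.21 in the shNsd2 libraries. In both treated groups the difference exceeded that of every control library, whereas MCTP and shNsd2 overlapped. Group means were 0.171 ± 0.00439, 0.201 ± 0.0133 and 0.219 ± 0.00552 (SD, n = 3 libraries each). This order of the control libraries below the others held after quantile normalization, median centring, cyclic loess, and GC or length correction. The overlap of MCTP and shNsd2 held with median centring and with GC or length correction. It did not hold after quantile normalization or cyclic loess. After quantile normalization the highest MCTP library was at 0.195 and the lowest shNsd2 library at 0.223. After cyclic loess they were at 0.210 and 0.217. MCTP replicate 2, low in the mean of all members, was above the controls here. The median transcript GC content was 51.8% in each subunit.

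Set against each other, the shNsd2 and MCTP cells differed at 0 members in either direction (limma; 3 at an unadjusted p under 0.05), while 43.2% of all 12217 genes were called. The median log2 difference, shNsd2 minus MCTP, was -0.00 and the range -0.24 (Rplp1) to 0.23 (Rpl3). Rplp1 differed by -0.24 ± 0.11 (limma, adjusted p = 0.102), Rpl3 by 0.23 ± 0.08 (limma, adjusted p = 0.0615) and Rpl5 by 0.13 ± 0.05 (limma, adjusted p = 0.07). Rpl3 passed with quantile normalization, cyclic loess, GC or length correction or all 9 libraries in 1 fit (0.23 to 0.27). Rpl5 passed with quantile normalization (0.17), length correction (0.15), no trend or all 9 libraries in 1 fit, and Rplp1 with cyclic loess (-0.21) or GC correction (-0.20). Without MCTP replicate 2, 15 members were called lower in shNsd2 than in MCTP and 2 higher, where 63.7% of all genes were called, with Rplp1 at -0.35, Rpl3 at 0.14 and Rpl5 at 0.14. Leaving out MCTP replicate 3 gave 3 higher, where 38.2% of all genes were called, with Rpl3 at 0.28, Rpl14 at 0.24 and Rplp1 at -0.14. Rpl14, at 0.17 (limma, adjusted p = 0.118), also passed with quantile normalization (0.23), cyclic loess (0.20), GC (0.20) or length correction (0.21), and was 0.09 without MCTP replicate 2. Rps12, at -0.11, passed at -0.17 without MCTP replicate 2 and was -0.05 without MCTP replicate 3. Quantile normalization gave 9 members higher and 1 lower, where 44.1% of all genes were called.

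Within each group, most members had the same library lowest. Control replicate 1 was the lowest control library for 64 of 76 members (84.2%), against 42.9% of all genes. MCTP replicate 2 was the lowest MCTP library for 67 (88.2%, against 50.5%), and shNsd2 replicate 3 the lowest of its group for 68 (89.5%, against 38.9%). The median SD within a group was 0.0541 for members and 0.052 for all genes in control, 0.0581 and 0.0443 in shNsd2, and 0.137 and 0.0885 in MCTP. MCTP libraries were thus the most spread, for ribosomal protein genes more than for genes in general.

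Differences between libraries were related to transcript GC content. Across the 76 members, Pearson's r between GC content and the log2 difference was 0.391 for shNsd2 minus control and 0.45 for MCTP minus control. Over all genes (n = 11922) these were 0.212 and 0.413. The same relation was present between replicates of 1 group. In the 9 pairs of libraries within a group, taken as the library with the higher member mean minus the other, r across the members ran from 0.426 to 0.645, and over all genes from -0.263 to 0.727. For the pair drawn in the plot, control replicate 2 minus 1, chosen after its values were seen as the widest of the control group, r was 0.59 across the members. These are descriptions across genes, which share their libraries and are not independent replicates. The 38 members of lower GC content (41.3% to 51.8%) had median differences of 0.03 with shNsd2 and 0.04 with MCTP, and the 38 of higher content (51.8% to 60.8%) of 0.11 in each. After each library was corrected for GC content, 27 members were called higher and 4 lower with shNsd2, and 7 higher and 1 lower with MCTP, while 56.8% and 46.7% of all genes were called.

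**Figure D3:**
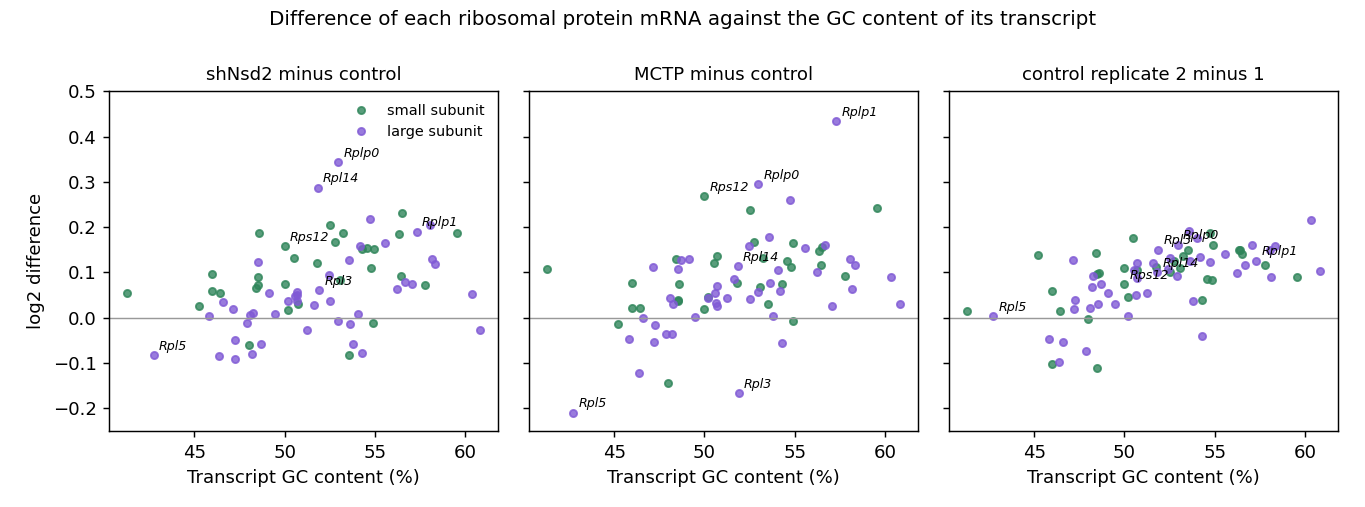
Log2 difference of each of the 76 ribosomal protein mRNAs (points, coloured by subunit) against the GC content of its transcript in percent, for shNsd2 minus control, MCTP minus control and, within the control group, replicate 2 minus replicate 1. Points at higher GC content tend to lie higher in each panel (r = 0.391, 0.45 and 0.59), including the one between 2 control libraries.

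As to level, per kilobase of coding sequence the members lay at a median log2 level of 15.38 in control, against 9.37 over 11389 protein-coding genes tested, and 75 of 76 were among the 570 highest of those genes. Per kilobase, Rplp1 was the highest at 16.52 and Rpl29, at 11.87, was the exception, followed from below by Rpl34 at 14.35. Reads of these genes can also match processed pseudogenes. The table held 42 entries named as ribosomal protein pseudogenes, of 30 parent genes among the members, with 0.859% of the members' summed linear values in control. Their control values were below those of the parent by a median difference of -8.58 on the log2 scale, the closest being Rpl34-ps1 at -1.34. Of 39 tested, 9 were called higher and 1 lower with shNsd2, and 1 was called higher with MCTP (limma), where 23.1%, 24.8% and 18% of all genes were called in these directions. Rpl35a-ps3, Rpl35a-ps4 and Rpl35a-ps6 carried identical values, as did Rps19-ps1 and Rps19-ps2. Reads shared by a parent and its copies cannot be told apart in this table.

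Other ribosomal subunits have names that the pattern misses. Fau, a fusion of a ubiquitin-like protein and a small subunit protein, read 13.60, 13.74 and 13.75 in control, 13.83, 13.63 and 13.99 in MCTP and 13.91, 13.87 and 13.78 in shNsd2. The shNsd2 libraries lay above the controls, which MCTP replicate 2 overlapped. Fau rose by 0.16 with shNsd2 (limma, adjusted p = 0.0322), and Rack1, listed as Gnb2l1, gave 0.13 (limma, adjusted p = 0.0748). With MCTP, Fau gave 0.12 (limma, adjusted p = 0.316) and Gnb2l1 0.15 (limma, adjusted p = 0.264). Of 9 paralogs of ribosomal proteins, 4 were in the table, of which 1 rose with shNsd2 and 1 rose and 1 fell with MCTP, where 47.8% and 35.2% of all genes were called. Rps27l, a p53 target, was at 12.08, 12.11 and 12.04 in control, 12.56, 12.44 and 12.61 in MCTP and 12.16, 12.11 and 12.12 in shNsd2, above every other library in MCTP. It rose by 0.46 ± 0.06 with MCTP (limma, adjusted p = 0.00125), and shNsd2 minus MCTP was -0.41 ± 0.05 (limma, adjusted p = 0.00117). Rpl22l1 was at 10.20, 10.05 and 10.06 in control, 9.53, 9.82 and 9.47 in MCTP and 9.95, 9.96 and 10.15 in shNsd2, lowest in MCTP, with a log2 fold change of -0.49 ± 0.10 (limma, adjusted p = 0.00831). Rpl7l1 rose with shNsd2 by 0.23 ± 0.03 (limma, adjusted p = 0.000533).

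Other TOP mRNAs, mostly translation factors, moved in both directions. Of 20, 5 were called higher and 4 lower with shNsd2 (median log2 fold change 0.05, against 0.00 over all genes) and 2 higher and 6 lower with MCTP (median -0.04, against -0.01). Over all genes tested, 47.8% were called with shNsd2 and 35.2% with MCTP. The elongation factor subunit Eef1g rose most with shNsd2, from 14.84, 15.00 and 14.96 in control to 15.34, 15.26 and 15.20 (0.33; limma, adjusted p = 0.00102), and was 15.31, 15.10 and 15.45 in MCTP (0.35; limma, adjusted p = 0.026). Eef1d (0.23) and Eif3f (0.17) also rose with shNsd2, and Eif3e (-0.34), Nap1l1 (-0.19) and Vim (-0.16) were lower. With MCTP, Eef1g and Vim (0.32) were called higher, and the largest of the falls were in Npm1 (-0.46), Eif3e (-0.43) and Hnrnpa1 (-0.42).

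Of 17 genes of mTORC1 and TOP mRNA control, 7 were called higher and 2 lower with shNsd2 and 6 higher and 5 lower with MCTP, with medians of 0.08 and -0.10. The shares called over all genes were 47.8% and 35.2%, so that the shNsd2 count was near that of genes in general. Sesn2, a stress-induced inhibitor of mTORC1, read 11.05, 11.18 and 11.32 in control, 11.44, 11.34 and 11.54 in MCTP and 11.72, 11.73 and 11.70 in shNsd2, highest in shNsd2, and rose by 0.53 ± 0.06 (limma, adjusted p = 0.000168). Mtor itself rose by 0.25 with shNsd2 (limma, adjusted p = 0.000367) and 0.26 with MCTP (limma, adjusted p = 0.00868), whereas its activator Rheb was lower in both (-0.37 and -0.36). Akt1s1 (0.23) was the other of the 3 largest rises with shNsd2, and Tsc1 (-0.12) the other fall. Larp1, which binds TOP mRNAs, was at 13.23, 13.27 and 13.32 in control, 13.12, 13.10 and 13.09 in MCTP and 13.42, 13.48 and 13.48 in shNsd2. Named after its values were seen, it was above control in shNsd2 (0.19; limma, adjusted p = 0.00357) and below it in MCTP (-0.17; limma, adjusted p = 0.0324). With MCTP the largest called changes besides that of Rheb were falls of Eif4ebp1 (-0.52) and Ddit4 (-0.38), and the largest rises were those of Akt1s1 (0.29), Mtor and Tsc2 (0.26).

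Chaperones and importers of ribosomal proteins included 6 of 13 called higher with shNsd2 (limma), with a median of 0.11, where 23.1% of all genes were called higher. With MCTP 1 was called higher and 3 lower, with a median of -0.03, where 35.2% of all genes were called. Grwd1, the chaperone of Rpl3, rose by 0.42 ± 0.06 with shNsd2 (limma, adjusted p = 0.000381), followed by Ipo9 (0.21) and Ltv1 (0.16). With MCTP the importer Ipo7 was lower, at 11.05, 11.61 and 10.98 against 11.97, 11.89 and 11.78 in control (-0.67; limma, adjusted p = 0.0146), as were Bccip (-0.19) and Ipo5 (-0.19), and Aamp was higher (0.26). Of the 4 genes of the checkpoint that senses free ribosomal proteins, 3 rose with shNsd2 and 2 with MCTP, where 23.1% and 18% of all genes were called higher. Cdkn1a was at 12.38, 12.54 and 12.54 in control, 13.43, 13.29 and 13.56 in MCTP and 12.75, 12.71 and 12.70 in shNsd2, and Mdm2 at 11.50, 11.38 and 11.43, 12.21, 12.55 and 12.16 and 11.59, 11.61 and 11.72 in the same order of groups. Both p53 targets were highest in MCTP, by 0.94 ± 0.08 (limma, adjusted p = 0.000237) and 0.87 ± 0.10 (limma, adjusted p = 0.000929), with smaller rises in shNsd2 of 0.23 and 0.20. Trp53 rose with shNsd2 by 0.40 ± 0.04 (limma, adjusted p = 9.05e-05), and Mdm4 was called in neither.

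Of 30 genes of these other lists called with shNsd2, 18 were called in the same direction in every fit that left out a library, and of 27 called with MCTP, 9 were. Under every other planned scaling, correction, filter or fit, 14 of the 30 and 17 of the 27 were called. Centring on the member mean, chosen after seeing the data, was not among these. With it, Eif4ebp2, Larp1 and Ltv1 of the former lost the shNsd2 call. Eif3e, Ipo7, Nap1l1, Rheb, Rpl22l1 and Sesn2 of the latter lost the MCTP call. Among the genes named, Fau, Eif3f, Nap1l1, Vim and Tsc1 lost the shNsd2 call in at least 1 fit without a library. These genes and Eef1d, Akt1s1 and Mdm2 lost it when all 9 libraries entered 1 fit. Vim, Npm1, Larp1, Bccip, Ipo5 and Aamp lost the MCTP call under at least 1 planned scaling, correction or fit. The 9 called with MCTP without each library were Cdkn1a, Mdm2, Rps27l, Rpl22l1, Mtor, Ddit4, Eif4ebp1, Eif4b and Hnrnpa1.

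Promoter sequence from RefSeq (GRCm38.p6) was matched for 56 of the 76 members. The letters CCGGAAG, the core of ETS family sites, occurred on either strand in the 300 bases from 250 before to 50 after the start in 23 of 56 (41.1%), against 9.93% of 27025 genes. GGGCGG was found in 34 (60.7%, against 38.2%), CACGTG in 6 (10.7%, against 8.09%) and TATAAA in 6 (10.7%, against 15.7%). A run of at least 8 bases that were all C or T on the strand of the gene, within 20 bases of the start, was found in 28 of 56, against 18.4% of all. No motif contains another, and all but the run were searched on both strands. A match is a description of letters and not a bound site. Members with such a run had a median log2 fold change of 0.07 with shNsd2 and 0.08 with MCTP, and the 28 without it 0.06 and 0.08.

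The stretches from 80 bases before to 20 after the annotated start are shown for Rpl14 (chr9:120571437-120571536 (+)), Rps12 (chr10:23787190-23787289 (-)), Rplp2 (chr7:141447571-141447670 (+)), Rplp0 (chr5:115559387-115559486 (+)) and Rpl5 (chr5:107900448-107900547 (+)), chosen because Rplp0 and Rpl14 had the largest rises with shNsd2, Rps12 rose in both comparisons, Rpl5 fell and Rplp2 completes the stalk. Sequences run 5′ to 3′ on the strand of the gene, and capitals mark runs of at least 8 pyrimidines.
Rpl14: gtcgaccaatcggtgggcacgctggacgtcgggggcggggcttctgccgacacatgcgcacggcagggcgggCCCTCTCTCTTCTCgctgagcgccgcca
Rps12: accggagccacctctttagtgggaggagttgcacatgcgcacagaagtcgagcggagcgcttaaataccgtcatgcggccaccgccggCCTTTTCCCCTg
Rplp2: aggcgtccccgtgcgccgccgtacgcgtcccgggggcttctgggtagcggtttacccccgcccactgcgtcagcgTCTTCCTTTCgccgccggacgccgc
Rplp0: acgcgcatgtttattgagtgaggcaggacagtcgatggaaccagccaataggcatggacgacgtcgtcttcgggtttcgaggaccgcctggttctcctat
Rpl5: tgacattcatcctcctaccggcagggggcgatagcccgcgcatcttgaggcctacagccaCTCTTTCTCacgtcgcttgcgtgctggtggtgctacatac
Rpl14 held the longest run of these, 14 bases, and Rplp0 held none of that length in this stretch.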

How the data were processed

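RNA-seq of NPK cells was analysed from 1 deposited table of values for 12842 genes, read as log2 from the values themselves. Per the labels and methods, the authors made it with bcl2fastq 1.8.4, TopHat, Cufflinks, DESeq and DESeq2 on mm9; neither the transform, the scaling of libraries nor the selection of genes is stated. That the libraries were already scaled to each other was inferred from the values. Of its 12 value columns, the 9 that the labels assign to samples were used, and 3 with no sample were not. Read depth is unknown. The members and lists were chosen with earlier results of these data known. Each pair of groups was compared with limma 3.58.1 in R 4.3.3 (lmFit, then eBayes with a mean-variance trend; two-sided) and Benjamini-Hochberg adjustment over all genes tested, threshold 0.05. Genes entered when over 3.78, the median of the lowest 10% of values, in at least 3 of 6 libraries. Nsd2 alone was also given an exact permutation test, for each comparison with control (scipy 1.17.1). Named members were a fixed set from the stalk and both subunits, plus, for each comparison, up to 5 largest rises and 5 largest falls among called members whose groups did not overlap. From other lists, up to 3 called genes a direction were named by size of change. Transcript GC content, length, coding length and coordinates came from GENCODE M21 (GRCm38), where 97.4% of gene identifiers were found and 55 rows were matched by symbol. Alternatives were quantile, median and cyclic loess scaling, GC and length correction by lowess (span 0.3), no filter, no trend, a replicate block, 1 fit of all libraries and leaving out each library. Centring each library on the mean of the members was chosen after seeing the data. The code was tested on simulated data.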

Additional observations from a re-analysis of the deposited data

How the results depend on the processing

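Counts of ribosomal protein genes called higher and lower, with limma, moved with scaling and design. For shNsd2 against control (19 and 0; 24 at an unadjusted p under 0.05), quantile normalization gave 28 and 1, cyclic loess 24 and 3, GC correction 27 and 4, length correction 19 and 1, and all 9 libraries in 1 fit 3 and 0. For MCTP against control (3 and 1), the same 5 gave 8 and 3, 6 and 2, 7 and 1, 3 and 2, and 6 and 2, and eBayes without a trend 3 and 2. For shNsd2 against MCTP (0 and 0; 3 unadjusted) they gave 9 and 1, 2 and 2, 4 and 2, 4 and 1, and 2 and 1, and no trend 1 and 0. With the replicate block the counts were 9 and 0, 1 and 0, and 0 and 0. Over these fits, 35.4% to 56.8%, 27.8% to 46.7% and 31.1% to 57.4% of all genes were called. Deviations of libraries with the same number correlated from -0.806 to 0.613. Library-wide trends, such as that with GC content, enter these values, so they cannot show whether the numbers pair libraries.

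Leaving out 1 library gave 6 to 25 higher and 0 to 3 lower for shNsd2 against control, 0 to 35 and 0 to 3 for MCTP against control, and 0 to 3 and 0 to 15 for shNsd2 against MCTP. Across all genes, calls ran from 4340 to 6018, 2046 to 7384 and 3391 to 7781.

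Centring on the member mean, chosen after seeing the data, gave 16 and 12, 6 and 2, and 4 and 4, and called 4846, 2399 and 3258 genes (39.7%, 19.6% and 26.7% of all). Of these, 1343 of 4846 were higher for shNsd2 against control, where the uncentred fit gave 2815 of 5836, and 1166 of 3258 for shNsd2 against MCTP, where it gave 2513 of 5276.

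Over 63 log2 fold changes of single genes, 1008 alternative values were computed. Of these, 896 stayed on the same side of the threshold, among them 49 uncalled values with the other sign. A call was lost in 42, gained in 70 and reversed in 0. The cause was not tested. Read depth is unknown, so no limit of detection can be given.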

Other observations

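With each library centred on the mean of the 76 members, an alternative chosen after seeing the data, only differences between ribosomal protein genes are left. With shNsd2, 16 members were then called higher, 10 of the small and 6 of the large subunit, and 12 lower, 2 of the small and 10 of the large subunit (limma, adjusted p under the threshold). In that fit 39.7% of all genes were called, 1343 of 4846 of them higher. All 16 were among the 19 called without centring. Among the 12 were Rpl5, Rpl11 and Rpl22. With MCTP, Rplp0, Rplp1, Rpl19, Rps12, Rps19 and Rps21 were called higher and Rpl3 and Rpl5 lower, where 19.6% of all genes were called. Centring fixes the member mean at the same value in every library, so the balance of directions is partly set by it.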
